A study of Homo sapiens with 6 samples.

Results

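Rab GTPases are small membrane-bound switches, and 48 of their genes were expressed well enough in HK-2 cells to be described here. The genes were taken by symbol: a protein-coding gene named RAB, followed by digits and at most 1 letter, with a mean of at least 50 raw reads over the 6 libraries. The table of 26899 genes held 57 such symbols, and 48 of them reached the minimum. RAB27B (mean of 59 reads) and RAB19 (63 reads) lay just above it, and RAB26 (35.8 reads) and RAB3A (29.5 reads) just below it. The other 7 genes below it were RAB39A, RAB17, RAB42, RAB33A, RAB39B, RAB40A and RAB37. All 48 genes also passed the low-count filter and were among the 15299 genes tested.

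The libraries came from HK-2, a cell line derived from human renal proximal tubule and transformed with human papillomavirus 16. Polyadenylated RNA was sequenced in 3 libraries labelled ANXA2 knockdown (shANXA2) and 3 libraries labelled as control (shCtrl). The control is called wild type in the titles and shCtrl in the descriptions, so whether these cells carried a control hairpin is not settled. Culture conditions and plasmid transfection by lipid reagent were described alike for both groups. Nothing in the labels says whether the 3 libraries of a group were separate cultures, so p-values measure only the spread between these libraries. ANXA2 encodes annexin A2, which attaches to phospholipid membranes such as those of endosomes when calcium is present, and the question put here was whether the RNA of the Rab machinery differed between the groups.

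A Rab protein cycles between an inactive GDP-bound form and an active GTP-bound form. Exchange factors (GEFs) load GTP and recruit the Rab to its membrane, GTPase activating proteins (GAPs) switch it off, and GDP dissociation inhibitors carry the inactive, lipid-anchored protein through the cytosol. Active Rabs bind effectors such as tethers and motor proteins, so each Rab marks a step of transport. In proximal tubule cells, endocytosis and recycling of apical receptors depend on this machinery.

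The libraries held 24231267 to 34561675 counted reads, and Rab genes took 0.303% to 0.332% of them. ANXA2 itself had 1598 ± 119.4 CPM (read counts scaled to library size by TMM) in shCtrl and 1539 ± 21.3 CPM in shANXA2 (SD, n = 3), with a log2 fold change of -0.05 and an adjusted p of 0.848 in the quasi-likelihood test of edgeR with Benjamini-Hochberg adjustment. RNA of the targeted gene was therefore not measurably lower in the libraries labelled as its knockdown, and each direction below is between the libraries labelled shANXA2 and shCtrl. Of 10 proximal tubule markers, 8 were listed and 1, GGT1, had a mean FPKM of at least 1, whereas 9 of 10 epithelial and renal lineage markers did. Leukocyte markers summed to 1.75 to 3.29 CPM in shCtrl and 2.29 to 3.85 CPM in shANXA2, and PTPRC and CD3E were not listed.

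Some Rab paralogs share much of their protein but differ in the letters that encode it. Protein identity was 90.4% in the RAB11 pair and 90.9% in the RAB6 pair, but 47.3% in the RAB7 pair. The first 60 coding bases from the start of the P-loop, the stretch that binds the phosphates of the nucleotide, are given for 4 genes of the RAB11 and RAB6 families, because these families had the pairs whose ratios are followed below. They were read from GENCODE release 44 on GRCh38, 5′ to 3′ on the coding strand, and capitals mark the positions that differ within the family.
RAB11A, chr15:65877343-65877402, plus strand, exon 2: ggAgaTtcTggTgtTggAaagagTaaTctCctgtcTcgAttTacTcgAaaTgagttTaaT
RAB11B, chr19:8399874-8399933, plus strand, exon 2: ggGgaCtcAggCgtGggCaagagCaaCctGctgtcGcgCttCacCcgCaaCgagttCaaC
RAB6A, chr11:73730777-73760578, minus strand, spliced from exons 1 and 2: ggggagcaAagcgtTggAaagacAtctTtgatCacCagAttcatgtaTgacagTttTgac
RAB6B, chr3:133864596-133895409, minus strand, spliced from exons 1 and 2: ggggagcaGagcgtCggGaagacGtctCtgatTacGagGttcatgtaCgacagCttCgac
All 17 positions that differ between RAB11A and RAB11B were the last position of a codon. RAB11A had A or T at 16 of these positions and RAB11B had G or C at 16. In the RAB6 pair 10 of 11 differing positions were last codon positions, with A or T at 9 in RAB6A and G or C at 10 in RAB6B. Not every family showed such a contrast, as RAB3B and RAB3D had G or C at 5 and 6 of 10 differing positions. Over the whole coding sequence, G or C stood at 35.6% of last codon positions in RAB11A and 88.1% in RAB11B, and at 44.7% in RAB6A and 76.4% in RAB6B. Coding identity was 72.5% in the RAB11 pair and 78.5% in the RAB6 pair. In each of the 14 paralog pairs compared, no run of 100 coding bases was shared.

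The other end of the coding sequence carries the cysteines that receive the lipid anchor. Of the 48 genes, 35 had 2 cysteine codons among their last 4 codons and 13 had 1. Examples of both counts are given with cysteine codons in capitals (last 24 coding bases before the stop, GENCODE release 44 on GRCh38).
RAB3D, chr19:11325401-11325424, minus strand, exon 5: ccccagcccagcagcTGCagcTGC
RAB6B, chr3:133828791-133828814, minus strand, exon 8: gccagcgagggcggcTGCtccTGC
RAB8A, chr19:16132278-16132301, plus strand, exon 8: agctttttccgaTGTgttcttctg
Both counts occurred among the genes with separated groups described below, for example RAB3D and RAB22A with 2 and RAB11A and RAB40C with 1. The window of 4 codons does not hold every cysteine near the end. Among the last 8 codons RAB11A had 2 cysteine codons and RAB40C had 1.

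The abundance of Rab genes was compared first, in FPKM, which divides fragments by the length of the transcript and the depth of the library, since this unit allows genes of different length to be set side by side. RAB7A, which directs late endosomes to lysosomes, had the highest level, with a mean of 203 FPKM and libraries from 171 to 222 FPKM. RAB13, which acts in delivery to the plasma membrane and at tight junctions, followed with 117.5 FPKM, and the ER-to-Golgi Rab RAB1B with 97.8 FPKM. Next came RAB5C of the early endosome (73.2 FPKM), RAB34 of lysosome positioning (61.7 FPKM) and RAB8A of exocytic delivery (45.5 FPKM). RAB32, RAB1A, RAB11B and RAB10 lay between 41.0 and 43.9 FPKM, and their libraries overlapped. The lowest levels were those of RAB27B (0.252 FPKM), a Rab of regulated secretion, and RAB30 (0.317 FPKM), a Golgi Rab.

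**Figure D1:**
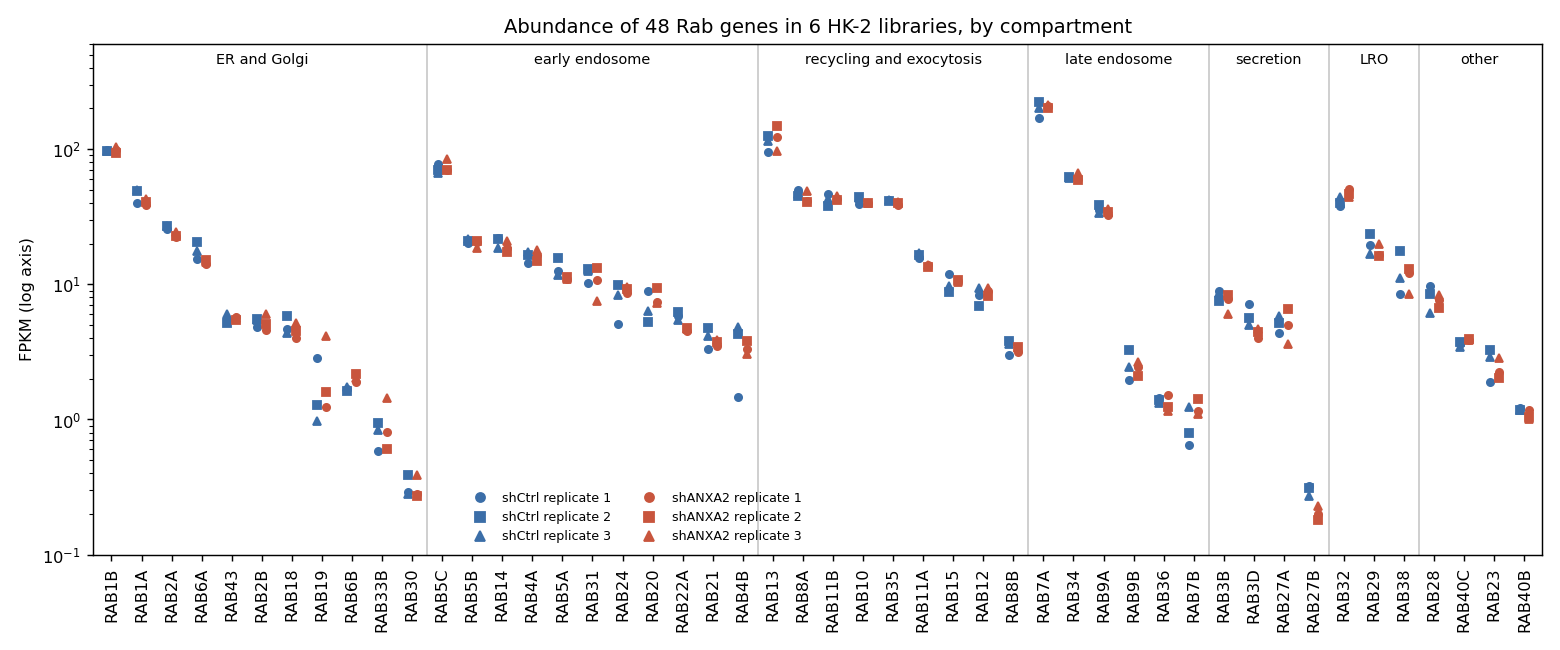
Level of each of the 48 Rab genes in FPKM (vertical log axis), with genes grouped by the compartment where they mainly act (LRO, lysosome-related organelles). Each point is 1 library, blue for shCtrl and red for shANXA2. RAB7A lies highest, with libraries from 171 to 222 FPKM, RAB27B lies lowest, and points of the groups lie close together for most genes.

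In most paralog families 1 gene supplied most of the RNA. RAB7A made up 99.6% ± 0.137 of the FPKM of its pair in shCtrl (SD, n = 3), and RAB27A, RAB9A, RAB8A and RAB6A made up 94.4% ± 1.19, 93.4% ± 1.29, 93.1% ± 1.05 and 91.3% ± 1.23 of theirs. RAB2A was also dominant, at 83.5% ± 0.685. RAB4A had 82.8% ± 6.87 of its pair by these counts, but reads of RAB4B cannot be told from those of readthrough genes. The RAB4A share is therefore uncertain. The RAB3 pair was more even, with RAB3B at 58.9% ± 4.14. RAB5C (67.6% ± 2.53), RAB1B (67.8% ± 3.09), RAB11B (72.2% ± 2.57) and RAB40C (75.2% ± 0.745) each exceeded their relatives.

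For some genes the counted reads cannot be assigned with certainty, because windows of 100 bases of the transcript also occur in other annotated genes. All windows of RAB4B (100%) lie in the readthrough genes MIA-RAB4B and RAB4B-EGLN2, and 90.6% of those of RAB43 occur in other genes, mainly ISY1-RAB43. The share was 55.7% for RAB24 (MXD3), 54.8% for RAB13 and 38.8% for RAB5C, the last 2 with overlapping genes known only by identifier. It was 4.74% for RAB6A (RAB6C and RAB6D), 4.38% for RAB8A (HSH2D) and 4.71% for RAB9B. Levels of these genes are uncertain, and the share of windows does not measure by how much. Exons of genes on the opposite strand are not part of this share. Such overlaps were annotated for RAB6B (SRPRB), RAB5A (PP2D1), RAB1A (CEP68) and RAB2B (TOX4), among others. Their effect on the counts was not tested.

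The total of Rab RNA did not differ beyond the spread of the libraries. The 48 genes summed to 1069, 1178 and 1125 FPKM in shCtrl and to 1106, 1128 and 1129 FPKM in shANXA2. The shANXA2 libraries thus lay within the range of the controls, with means of 1121 ± 13.2 and 1124 ± 54.4 FPKM (SD, n = 3) and an exact two-sided permutation p of 1. In such bulk RNA, fewer cells of a kind and less RNA per cell cannot be told apart. Sums by compartment overlapped between the groups in all 7 cases. The smallest exact p was 0.2, for ER and Golgi transport (208 ± 7.37 FPKM in shCtrl, 198 ± 10.0 FPKM in shANXA2, n = 3) and for regulated secretion (19.7 ± 1.07 and 17.0 ± 2.51 FPKM, n = 3), with an adjusted p of 0.7 for both over the 7 sums. The smallest p that 3 against 3 libraries allow is 0.1.

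Gene by gene, no Rab gene passed the test, in which 0 of 48 genes and 0 of all 15299 genes (0%) reached a Benjamini-Hochberg adjusted p of 0.05 with edgeR. At an unadjusted p of 0.05, 4 of the 48 genes (8.33%) were called with edgeR, beside 8.18% of all tested genes, so the share was that of the background. All 4 were lower in shANXA2 (RAB22A, RAB3D, RAB11A and RAB6A), where 4.32% of all tested genes were called lower and 3.86% higher. Limma-voom also gave 0 of 48 at the adjusted threshold, beside 0% of all genes, and 4 at the unadjusted one, beside 8.64%. DESeq2 gave 0 and 3, beside 0.188% of 16467 genes (31 genes) and 4.78% of 26897 genes. These are larger sets of genes than the 15299 of edgeR and limma-voom, so the shares are not directly comparable. Without the low-count filter, edgeR gave 0 of 48 at the adjusted threshold, beside 0.613% of all 26899 genes (165 genes). The unadjusted count was 1 without shANXA2 replicate 2 (beside 5.89% of all genes in that fit) and 0 without shANXA2 replicate 1 (beside 3.21%). It was 5 without shCtrl replicate 1 (beside 12.4%) and 5 without shANXA2 replicate 3 (beside 8.23%).

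Most estimates were small. Over the 48 genes, log2 fold changes ran from -0.55 to 0.47 with a median of -0.05, against -0.01 over all tested genes, and 35 lay within 0.2 of no difference. Below 0 were 29 of 48 estimates (60.4%), beside 51% of all tested genes. The 95% interval lay inside a log2 change of 0.5 in either direction for 27 genes and inside 1 for 44 genes. The intervals of RAB7B, RAB19, RAB27B and RAB33B, all of low level, reached beyond 1.

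The groups did not overlap for 9 of 48 genes (18.8%), beside 15.6% of all tested genes. RAB22A, RAB3D, RAB11A, RAB6A, RAB2A, RAB5A and RAB27B were lower in each shANXA2 library than in any control library, which is 14.6% of the 48 beside 7.7% of all genes. RAB6B and RAB40C were higher in each, 4.17% beside 7.94%. Of the 39 Rab genes with a mean of at least 10 CPM, 4 (10.3%) were called at the unadjusted threshold of edgeR, beside 10.1% of genes at that level. In the same 39 genes 6 (15.4%) were separated downward, beside 9.05%, and 2 (5.13%) upward, beside 9.09%. The count of non-overlapping genes was larger where a library was left out and fewer had to be separated, and so was the share of all genes. Without shCtrl replicate 1 it was 18 (13 lower beside 15.9% of genes, 5 higher beside 16.2%). Without shCtrl replicate 3 it was 14 (9 lower beside 13.5%, 5 higher beside 13.6%), and without shANXA2 replicate 3 it was 14 (10 lower beside 15.1%, 4 higher beside 14.6%).

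**Figure D2:**
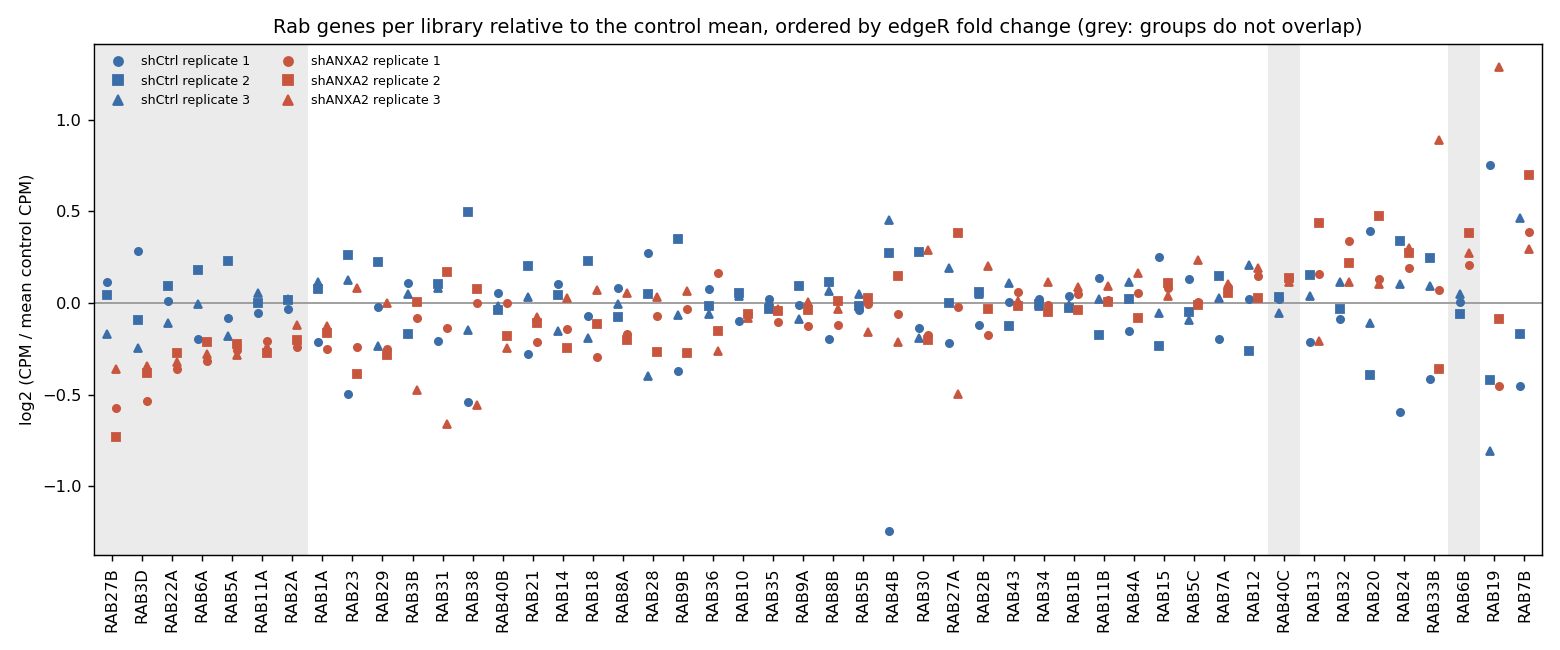
CPM of each Rab gene in each library relative to the shCtrl mean (vertical axis, log2), with genes ordered from the lowest to the highest edgeR log2 fold change. Grey bands mark the 9 genes whose groups do not overlap, 7 on the left and 2 on the right, and most other genes show red and blue points mixed around 0.

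Among the Rabs of ER and Golgi transport, the RAB6 paralogs stood on opposite sides. RAB6A (chr11:73675638-73761137, minus strand), which acts in transport from and back to the Golgi, had 58.2, 75.5 and 66.5 CPM in shCtrl and 53.5, 57.7 and 55.0 CPM in shANXA2. The groups were separated by a narrow margin, and shCtrl replicate 2 was the highest library. The log2 fold change was -0.27 (SE 0.117, 95% interval from -30.8% to -0.460%), with an unadjusted p of 0.0455 and an adjusted p of 0.608 in edgeR, and it was -0.17 without shCtrl replicate 2. RAB6B (chr3:133824235-133895882, minus strand), its relative best known from neurons, had 10.1, 9.64 and 10.4 CPM in shCtrl and 11.6, 13.1 and 12.1 CPM in shANXA2. Every shANXA2 library was above the controls, with a log2 fold change of 0.29 (SE 0.143, interval from -2.23% to 52.8%) and an adjusted p of 0.619 in edgeR.

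RAB2A, which acts at the ER-Golgi intermediate compartment, had 105.6, 109.2 and 109.6 CPM in shCtrl and 91.6, 94.1 and 99.4 CPM in shANXA2. The log2 fold change was -0.19 (SE 0.089, interval from -23.5% to 0.931%), with an adjusted p of 0.615 in edgeR. RAB1A, of ER-to-Golgi transport, had 103.3, 126 and 129.4 CPM in shCtrl and 100.5, 106.8 and 109.7 CPM in shANXA2, and shCtrl replicate 1 lay among the shANXA2 libraries. Its better expressed relative RAB1B differed by a log2 fold change of 0.03 (SE 0.084), from 205.6 ± 4.55 CPM to 210.5 ± 9.31 CPM (SD, n = 3).

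RAB19 and RAB33B, little expressed Golgi Rabs, had among the largest estimates and the widest scatter. RAB19 had 3.03, 1.35 and 1.03 CPM in shCtrl and 1.32, 1.70 and 4.40 CPM in shANXA2, and 1 library of each group was far above the rest. Its log2 fold change of 0.46 (SE 0.549) became -0.24 without shANXA2 replicate 3. RAB33B, which also acts in autophagy, had 2.83, 4.47 and 4.01 CPM in shCtrl and 3.96, 2.94 and 6.996 CPM in shANXA2, and its log2 fold change of 0.29 became -0.13 without the same library. Of the 11 genes of this compartment, 5 had estimates below 0, beside 51% of all tested genes, and the median was 0.0049.

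In the early endosome group, 7 of 11 estimates were below 0, beside 51% of all tested genes, with a median of -0.041. RAB22A (chr20:58309715-58367507, plus strand), which sorts cargo at early endosomes and sends it back to the surface, had the smallest unadjusted p of the 48 genes. It had 53.8, 56.8 and 49.5 CPM in shCtrl and 41.6, 44.2 and 42.6 CPM in shANXA2, a clear gap between tight groups. The log2 fold change was -0.32 (SE 0.102, interval from -31.6% to -5.93%), with an unadjusted p of 0.0120 and an adjusted p of 0.599 in edgeR. Over the alternatives the estimate stayed between -0.37 and -0.18, with adjusted p-values from 0.371 to 0.988.

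RAB5A (chr3:19947097-19985175, plus strand), which drives fusion of early endosomes, had 33.7, 41.8 and 31.4 CPM in shCtrl and 29.8, 30.5 and 29.2 CPM in shANXA2. The margin between the groups was small and shCtrl replicate 2 stood apart, and the log2 fold change of -0.26 (SE 0.13, adjusted p of 0.627 in edgeR) was -0.12 without that library. The other RAB5 genes, RAB5B and RAB5C, had log2 fold changes of -0.04 (SE 0.094) and 0.08 (SE 0.108), and their groups overlapped. RAB20 and RAB24, which are linked to phagosome maturation and autophagy, had estimates of 0.25 (SE 0.218) and 0.25 (SE 0.221). The RAB20 estimate was 0.089 without shCtrl replicate 2 and 0.49 without shCtrl replicate 1. RAB24 had 7.67, 14.6 and 12.4 CPM in shCtrl and 13.2, 14.0 and 14.3 CPM in shANXA2, and without the low control library, replicate 1, its estimate was 0.032.

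Among the 9 Rabs of recycling and exocytic delivery, RAB11A was the only one with separated groups, beside 15.6% of all tested genes. RAB11A (chr15:65726054-65891989, plus strand), the Rab of slow recycling through the perinuclear recycling endosome, had 81.7, 85.1 and 88.2 CPM in shCtrl and 73.5, 70.3 and 72.0 CPM in shANXA2. Both groups were tight, and the log2 fold change was -0.24 (SE 0.090, interval from -26.5% to -2.53%), with an unadjusted p of 0.0254 and an adjusted p of 0.605 in edgeR. RAB11B, of the same function, had 104.2, 84.1 and 96.1 CPM in shCtrl and 96.0, 95.2 and 101.1 CPM in shANXA2, which overlapped. RAB13, RAB8A and RAB10, which carry cargo to the basolateral membrane and cell junctions, had log2 fold changes of 0.15 (SE 0.162), -0.10 (SE 0.104) and -0.07 (SE 0.088), all with overlapping groups. For RAB10 the interval ran from -16.8% to 9.50%.

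The late endosome and lysosome group of 6 genes contained no gene with separated groups, beside 15.6% of all tested genes. With so few genes per compartment, such counts cannot set the compartments apart. RAB7A had 409, 519 and 478 CPM in shCtrl and 499, 487 and 503 CPM in shANXA2, a log2 fold change of 0.08 with an interval from -9.19% to 23.4%. The shANXA2 libraries lay within the control range. RAB7B, which acts in transport from endosomes back to the Golgi, had 2.21, 2.69 and 4.17 CPM in shCtrl and 3.96, 4.91 and 3.71 CPM in shANXA2. Its log2 fold change of 0.47 (SE 0.287, adjusted p of 0.668 in edgeR) was the largest positive one, but the highest control library exceeded 2 shANXA2 libraries. The estimate was 0.77 without that control library, replicate 3, and 0.29 without shCtrl replicate 1. RAB34 differed by a log2 fold change of 0.02 (SE 0.090).

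All 4 estimates for Rabs of regulated secretion were below 0, beside 51% of all tested genes, and 2 of the 4 genes had groups separated downward, beside 7.7%. The roles were assigned with earlier results of these data known, so these counts cannot show a difference of the compartment. The RAB27A estimate of -0.0028 was 0.14 with the GC offset described below. Summed FPKM of the 4 genes overlapped between the groups, with an exact two-sided permutation p of 0.2. RAB3D (chr19:11322068-11346270, minus strand), found on secretory granules of exocrine cells, had 33.4, 25.8 and 23.1 CPM in shCtrl and 19.0, 21.1 and 21.6 CPM in shANXA2. The lowest control library lay close to the highest shANXA2 library, and shCtrl replicate 1 was far above the other controls. The log2 fold change was -0.42 (SE 0.155, interval from -41.2% to -4.41%), with an unadjusted p of 0.0250 and an adjusted p of 0.605 in edgeR, and it was -0.25 without shCtrl replicate 1.

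RAB27B (chr18:54717860-54895516, plus strand), of secretory granule and exosome release, had 2.50, 2.39 and 2.05 CPM in shCtrl and 1.55, 1.39 and 1.80 CPM in shANXA2, from 46 to 78 reads per library. Although separated, these counts left a wide interval, from -56.6% to 7.80% around a log2 fold change of -0.55 (SE 0.291, adjusted p of 0.634 in edgeR). RAB27A, which acts in the same step at a much higher level, differed by less than 0.01 on the log2 scale, its groups overlapped, and its estimate changed sign in 5 of 18 alternatives. RAB3B, the main RAB3 gene here, had 113.6 ± 11.2 CPM in shCtrl and 100.9 ± 16.9 CPM in shANXA2 (SD, n = 3).

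Of the Rabs of lysosome-related organelles, RAB32, which acts in melanosome formation and at mitochondria, had the smallest p among the genes with higher estimates. It had 49.3, 51.0 and 56.5 CPM in shCtrl and 66.0, 60.8 and 56.5 CPM in shANXA2, and the lowest shANXA2 library met the highest control library. The log2 fold change was 0.22 (SE 0.108, interval from -1.25% to 38.3%), with an adjusted p of 0.615 in edgeR. RAB29 and RAB38 of the same group had log2 fold changes of -0.17 (SE 0.137) and -0.14 (SE 0.265). Without shCtrl replicate 2 they were -0.046 and 0.20. In the last group, RAB40C (chr16:589357-629272, plus strand), a Rab that forms part of a ubiquitin ligase, had 11.5, 11.6 and 10.9 CPM in shCtrl and 12.5, 12.5 and 12.3 CPM in shANXA2. These groups were separated by a log2 fold change of only 0.13 (SE 0.136, adjusted p of 0.796 in edgeR). RAB40B, RAB28 and RAB23, the last a negative regulator of Hedgehog signalling at the cilium, had overlapping groups.

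Ratios within families were compared next, since they do not depend on the scaling between libraries. In 5 of 14 ratios the groups did not overlap. The share over pairs of other genes was not computed, so this count has no background beside it. It cannot be read as particular to Rab genes, and the RAB5 ratios share genes with one another. The log2 ratio of RAB6A to RAB6B was 2.53, 2.97 and 2.68 in shCtrl and 2.21, 2.14 and 2.18 in shANXA2, a difference of -0.55. The RAB6B share of the pair was 8.71% ± 1.23 of FPKM in shCtrl and 12.2% ± 0.251 in shANXA2 (SD, n = 3). The shANXA2 libraries were nearly alike, and all lay beyond the controls.

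The RAB11A to RAB11B ratio was lower by 0.28 on the log2 scale in shANXA2, and RAB11A made up 27.8% ± 2.57 of the pair in shCtrl and 24.0% ± 0.660 in shANXA2 (SD, n = 3). The other 3 separated ratios, RAB5A to RAB5C, RAB40B to RAB40C and RAB2A to RAB2B, differed by -0.32, -0.27 and -0.19. Each of the 5 had an exact two-sided permutation p of 0.1, the smallest that 3 against 3 libraries allow, and an adjusted p of 0.28 over the 14 ratios. In all 5 the gene with the lower GC content was the one that was relatively lower in shANXA2. The RAB1, RAB7, RAB8, RAB9, RAB3, RAB4 and RAB27 ratios, and those of RAB5B, overlapped between the groups.

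**Figure D3:**
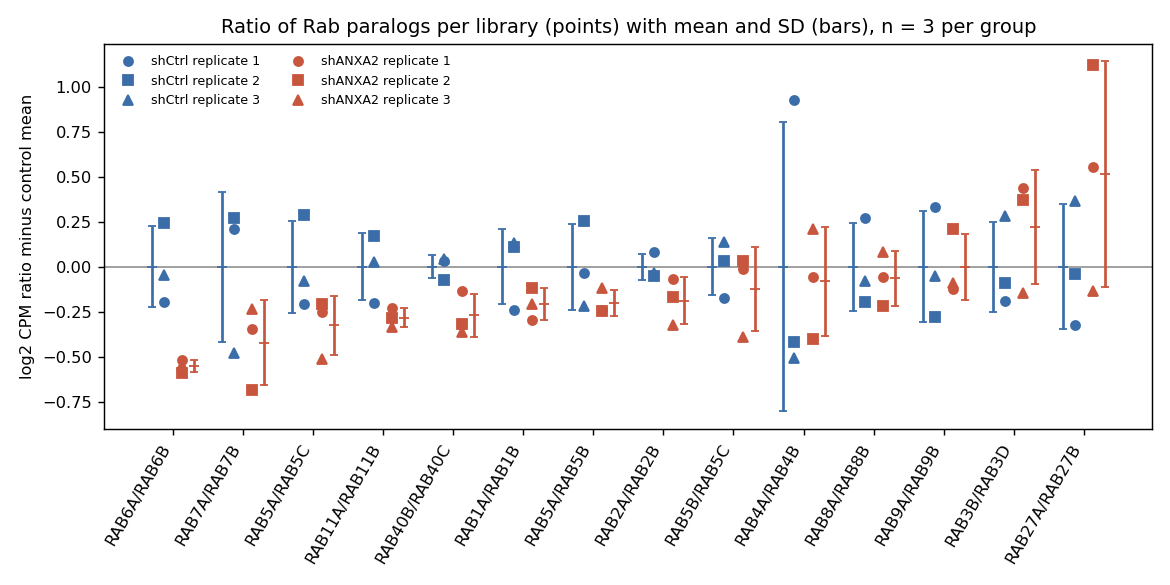
Log2 ratio of CPM within each of 14 Rab paralog pairs, relative to the shCtrl mean of that pair (vertical axis). Points are libraries and bars give mean and SD (n = 3 per group), blue for shCtrl and red for shANXA2. The RAB6A to RAB6B ratio shows 3 shANXA2 libraries close together, 0.55 below the control mean.

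Because the separated genes differed in base composition, the differences were set against the GC content of the GENCODE canonical transcript. The 7 genes with lower separated groups had GC contents from 35.1% to 52.8% with a median of 40.1%, and RAB6B and RAB40C had 50.8% and 65.3%. Of the 24 Rab genes below the median GC content of 45.5%, 20 had estimates below 0 and 6 were separated downward, with a median log2 fold change of -0.11. Of the 24 genes above it, 9 had estimates below 0, 1 was separated downward and the median was 0.036. In GC deciles 1 to 4 of all tested genes (GC up to 45.8%), 65.1% to 77.4% of estimates were below 0. Separated downward were 11.2% to 15.6% of the genes in these deciles. In deciles 5 to 10 the shares were 25.0% to 56.5% and 1.59% to 7.21%. Across the 48 genes, GC content and log2 fold change had a Pearson r of 0.41 and a Spearman rho of 0.47. This describes genes measured in the same 6 libraries, which are not independent replicates, and GC content also went with transcript length here (r = -0.50 with log2 length).

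The same relation held over all tested genes with an annotated GC content. Pearson r was 0.29 over 15122 genes and 0.48 over the 8896 genes with at least 10 CPM. Median log2 fold changes passed from -0.16 in the decile of lowest GC content to 0.14 in the decile of highest, and the share of genes with lower separated groups from 13.7% to 1.65%. Libraries of a group differed in this respect. The median log2 deviation of the highest GC decile minus that of the lowest was 0.073, -0.39 and -0.064 in shCtrl replicates 1, 2 and 3, and 0.21, 0.12 and 0.067 in shANXA2. shCtrl replicate 2 thus lay farthest from the rest, and shCtrl replicate 1 lay within the range of shANXA2. Without shCtrl replicate 2, r was 0.24 over the Rab genes and 0.12 over all genes, and the median of the Rab genes was -0.0091.

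**Figure D4:**
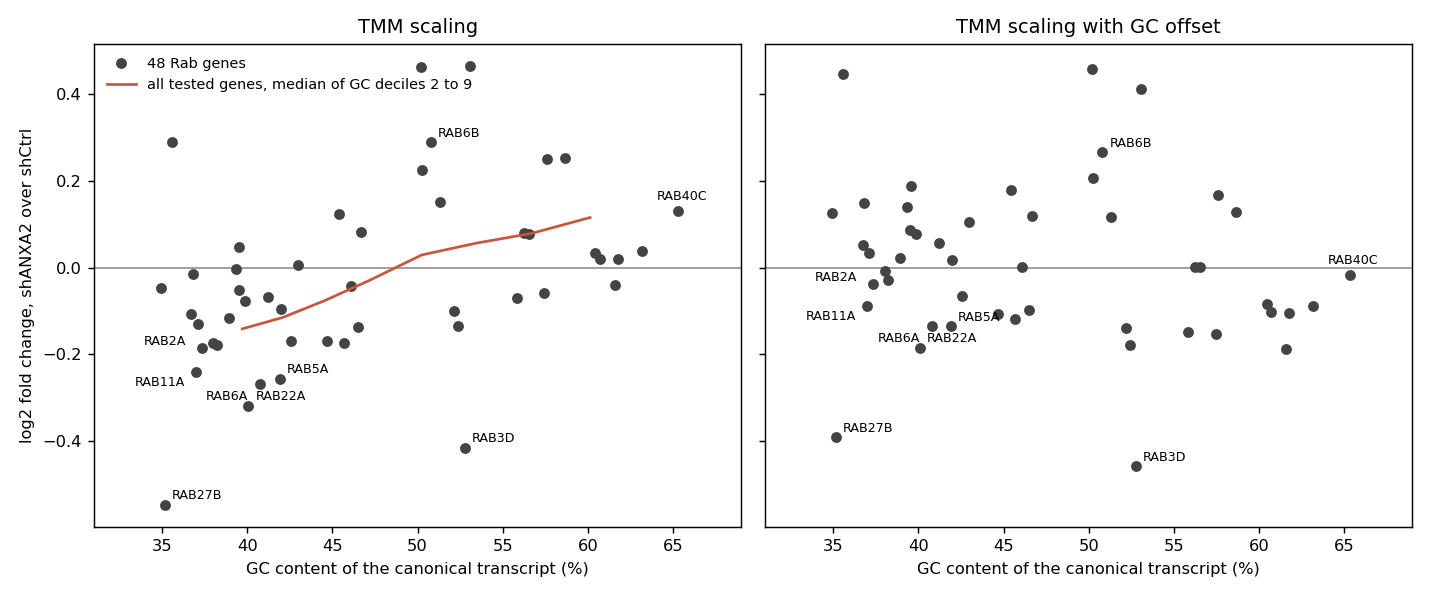
Log2 fold change of the 48 Rab genes (vertical axis) against the GC content of their canonical transcript in percent (horizontal axis), with TMM scaling on the left and with a GC offset added on the right. Points are genes, and the red line joins medians of GC deciles of all tested genes. On the left points tend to follow the line from below 0 at low GC to above 0 at high GC. On the right, where the offset was built to remove this trend, they do not, and RAB3D and RAB27B remain low.

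An offset for GC content was then added to the edgeR fit for each library, a choice made after seeing the data. Such an offset is built to remove the trend with GC content, so the loss of that trend was fixed in advance. With the offset, r was 0.011 over all genes and -0.14 over the 48 genes. The median log2 fold change of the 48 genes was 0.0014 and 23 of 48 estimates were below 0. RAB3D was the only Rab gene left at an unadjusted p of 0.05, beside 6.54% of all genes in that fit, with a log2 fold change of -0.46, an unadjusted p of 0.0102 and an adjusted p of 0.752 in edgeR. RAB22A, RAB6A and RAB11A had log2 fold changes of -0.18, -0.13 and -0.09. Non-overlapping groups again numbered 9, 5 lower (beside 6.92% of genes) and 4 higher (beside 7.64%), but only RAB3D and RAB6B were among the 9 found without the offset. The difference between the RAB6A and RAB6B log2 fold changes went from -0.56 to -0.40 and that between RAB11A and RAB11B from -0.28 to 0.00044. Which of the fits is nearer to the cells was not tested.

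The proteins that control Rabs were examined from 4 lists of 150 genes, of which 143 were tested. None passed an adjusted p of 0.05 in edgeR, and 13 (9.09%) had an unadjusted p of 0.05 or less beside 8.18% of all tested genes, 8 of them higher and 5 lower in shANXA2. This count was 2 without shANXA2 replicate 1 (beside 3.21% of all genes) and 8 with the GC offset (beside 6.54%). The median log2 fold change of the 143 genes was 0.0073. Groups were separated upward for 11 of the 143 genes, beside 7.94% of all tested genes, and downward for 10, beside 7.7%. Most genes named below were picked by their p-values, so separated groups among them say nothing about the lists.

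Of the 12 genes of the membrane cycle, 1 was called higher and 1 lower at the unadjusted threshold (16.7% beside 8.18% of all tested genes). PRAF2, a member of the family of Rab acceptors, had 49.0, 37.5 and 45.0 CPM in shCtrl and 62.4, 57.7 and 61.2 CPM in shANXA2, a log2 fold change of 0.46 (SE 0.120) with an unadjusted p of 0.0037 and an adjusted p of 0.599 in edgeR. All shANXA2 libraries lay well above the controls. GDI2, a GDP dissociation inhibitor that takes inactive Rabs off membranes, had 292.5, 309.6 and 313.3 CPM in shCtrl and 260.3, 256.3 and 275.6 CPM in shANXA2, with a log2 fold change of -0.21 (SE 0.082, adjusted p of 0.605 in edgeR). The groups were again separated. PRAF2 and GDI2 had GC contents of 59.9% and 42.6%, on opposite sides of the median of all tested genes, 48.6%. YIPF5, a Golgi membrane protein, and RABGGTA, a subunit of the enzyme that attaches the lipid anchor, had log2 fold changes of -0.17 and 0.22 and did not reach the unadjusted threshold.

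Of 38 exchange factors tested, 2 were called higher and 2 lower (10.5% beside 8.18% of all tested genes). HPS1, part of the complex that activates RAB32 and RAB38, and DENND3, which activates RAB12, had log2 fold changes of 0.31 (SE 0.108) and 0.25 (SE 0.099). DENND5B, of the DENN domain family, had -0.48 (SE 0.180). These 3 genes had separated groups, and their adjusted p-values in edgeR were 0.599 for HPS1 and 0.605 for DENND3 and DENND5B.

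Among 35 GTPase activating proteins tested, 3 were called higher and 1 lower (11.4% beside 8.18%). EVI5L and TBC1D17, both with the TBC domain that inactivates Rabs, had log2 fold changes of 0.44 (SE 0.142) and 0.32 (SE 0.107). TBC1D7, a subunit of the tuberous sclerosis complex that was named after its values were seen, had 0.28 (SE 0.119). All 3 were separated, whereas TBC1D31 at -0.49 (SE 0.215) and TBC1D12 at -0.39 (SE 0.198) were not.

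Among 58 effectors tested, 2 were called higher and 1 lower (5.17% beside 8.18% of all tested genes). MLPH, which links RAB27A to a myosin motor, had 64.9, 63.3 and 60.6 CPM in shCtrl and 75.0, 72.6 and 77.4 CPM in shANXA2, with a log2 fold change of 0.25 (SE 0.092) and an adjusted p of 0.602 in edgeR. MYO5B, a motor that carries RAB11 vesicles, had a log2 fold change of 0.37 (SE 0.151), but its groups overlapped. ZW10, part of a tethering complex of the ER, and OCRL, an inositol phosphatase of endosomes, were separated downward with log2 fold changes of -0.37 (SE 0.128) and -0.21 (SE 0.108), and OCRL did not reach the unadjusted threshold.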

How the data were processed

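Raw read counts per gene and FPKM values (fragments scaled for transcript length and library depth) were deposited by the authors for all 6 libraries. The submitters' processing notes name bcl2fastq, TopHat2, edgeR and GRCh38, without versions or roles. The counts had not been normalised, and the FPKM values served for levels between genes. The sources used here do not give how strand was treated during counting. All 6 columns of each table were used, and groups came from the labels. The style of the text alone follows the paper listed with the series, which concerns another experiment.

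Counts were tested with edgeR 4.0.16 in R 4.3.3, by the quasi-likelihood test with TMM scaling and the default low-count filter (a minimum count of 10 and a total of 15), in 1 model of 6 libraries without covariates. Tests were two-sided, with Benjamini-Hochberg adjustment over the 15299 genes tested and a threshold of 0.05. CPM are counts scaled to library size by TMM. Single values were compared by exact permutation. The fit was tested on simulated counts. Alternatives were other scalings, no filter, DESeq2 1.42.0, limma 3.58.1 (voom on counts, trend on log2 of FPKM plus 1 or 0.1), robust dispersion, a replicate block, omission of each library, other count minimums, and a GC offset by lowess with a span of 0.3.

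GC content, coordinates and sequences came from GENCODE release 44 on GRCh38, in which 97.1% of genes and all 48 Rab genes were found by identifier. Replicates differed beyond sampling noise (chi-square per degree of freedom of 10.4 to 53.5), so each counted as 1 sample. Depth was 24231267 to 34561675 reads, and intervals rest on the spread of 3 libraries per group.

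The rule for named genes took ANXA2, the 10 largest estimates, the 5 smallest p-values in each direction, the 10 highest FPKM, each Rab gene with an unadjusted p under 0.05 or separated groups, paralog families, the 2 smallest p-values in each direction per regulator list, and the genes nearest the count minimum. The members, roles and lists were chosen with earlier results of these data known. Some genes that this rule or these lists hold are not reported here.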

Additional observations from a re-analysis of the deposited data

How the results depend on the processing

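No Rab gene passed the adjusted threshold under any alternative in which it was tested. The unadjusted count of 4 was 1 with the GC offset, beside 6.54% of all genes in that fit. It ranged from 0 to 5 when 1 library was left out, beside 3.21% to 12.4% of all genes. The count over regulators, 13 in the fit described, was 8 with FPKM plus 1 or plus 0.1 and a filter at a mean FPKM of 1. In those 2 fits 9.24% and 9.23% of all genes were called. It was 8 with the GC offset and ranged from 2 to 13 over the omissions, beside the same shares of all genes as above. Separated Rab genes ranged from 10 to 18 over the omissions, where 9.86% to 15.9% of all genes were separated downward and 10.2% to 16.2% upward. Over all genes, 165 passed without the low-count filter, 31 with DESeq2 and 0 to 4 over the omissions. The median of the Rab genes was 0.0014 with the GC offset.

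Labels give both groups the replicate numbers 1 to 3. Deviations of libraries with the same number correlated at -0.11, 0.20 and -0.29, and those with different numbers at -0.35 to 0.34. With 3 libraries per group these values cannot settle whether libraries of the same number were prepared together. With a replicate block, 3 Rab genes and 10 regulators had an unadjusted p under 0.05 in edgeR, beside 7.03% of all genes in that fit. The median of the Rab genes was then -0.047 and the RAB4B estimate was 0.097.

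Of 858 estimates for single Rab genes under alternatives, 63 changed sign, none of them past the threshold. With the GC offset these were RAB10 (0.056), RAB11B (-0.089), RAB14 (0.022), RAB18 (0.053), RAB1B (-0.085), RAB21 (0.033), RAB27A (0.14), RAB28 (0.017), RAB30 (0.15), RAB34 (-0.10), RAB40C (-0.017), RAB43 (-0.11), RAB5B (0.0022), RAB8B (0.13), RAB9A (0.087) and RAB9B (0.078). With upper-quartile scaling they were RAB27A (0.011) and RAB30 (0.0052), and with library-size scaling RAB2B (-0.018), RAB34 (-0.0038) and RAB43 (-0.0037). Limma-voom gave -0.013 for RAB2B and 0.065 for RAB4B. FPKM plus 1 gave -0.011 and 0.050 for the same genes with or without the filter, and FPKM plus 0.1 gave -0.014 and 0.11. When 1 library was left out, the ranges that crossed 0 were those of RAB11B from -0.039 to 0.11, RAB13 from -0.011 to 0.31, RAB15 from -0.025 to 0.22, RAB18 from -0.20 to 0.023, RAB19 from -0.24 to 1.05, RAB27A from -0.24 to 0.19, RAB28 from -0.26 to 0.062, RAB2B from -0.10 to 0.089, RAB30 from -0.19 to 0.15, RAB31 from -0.37 to 0.026, RAB33B from -0.13 to 0.53, RAB34 from -0.029 to 0.056, RAB36 from -0.20 to 0.016, RAB38 from -0.34 to 0.20, RAB43 from -0.038 to 0.078, RAB4A from -0.021 to 0.11, RAB4B from -0.40 to 0.25, RAB5B from -0.074 to 0.014, RAB5C from -0.00073 to 0.15, RAB7A from -0.0057 to 0.16, RAB8B from -0.13 to 0.016 and RAB9B from -0.23 to 0.14. The cause of these changes was not tested. Depth limits RAB27B, RAB19, RAB7B, RAB30 and RAB33B most, with means of 59 to 129 reads.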

Other observations

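Rab-like genes, which the naming rule leaves out, were read from the same fit. RABL6, also called Parf, a Rab-like GTPase linked to cell growth, had 83.3, 73.1 and 85.3 CPM in shCtrl and 98.3, 92.8 and 94.3 CPM in shANXA2. All shANXA2 libraries were above the controls, with a log2 fold change of 0.24 (SE 0.098), an unadjusted p of 0.0372 and an adjusted p of 0.605 in edgeR, and the GC content of its transcript was 65.2%. RABL2B, of ciliary transport, was also separated upward, with 17.5, 14.4 and 19.1 CPM in shCtrl and 21.4, 20.7 and 19.3 CPM in shANXA2 and a log2 fold change of 0.27 (SE 0.143). Its near copy RABL2A had an estimate of -0.21 (SE 0.358) at 3.98 ± 1.95 CPM in shCtrl (SD, n = 3), and the assignment of reads between such copies is uncertain. RABL3, RASEF (a large Rab with coiled coils), RAB30-AS1 and RAB11B-AS1 had overlapping groups. These genes were chosen after their values were seen.

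Every 100-base window of RAB4B occurs in MIA-RAB4B, in RAB4B-EGLN2 or in both, and the share of each was not counted. The readthrough gene RAB4B-EGLN2 had 67.5 ± 3.67 CPM in shCtrl and 69.3 ± 2.21 CPM in shANXA2 (SD, n = 3). For RAB4B, 5.74 ± 2.92 and 5.61 ± 0.709 CPM were counted in the same groups. RAB4B had 2.42 CPM in shCtrl replicate 1 and 6.94 and 7.86 CPM in the other controls, while RAB4B-EGLN2 stayed between 63.4 and 70.4 CPM in the same 3 libraries.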
